A study of Rattus norvegicus with 6 samples.

Results

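Scavenger receptors and markers of the endothelium that lines the liver sinusoids were followed across 6 liver samples of 3-week-old rat pups. The list named 10 genes, Stab1, Stab2, Lyve1, Fcgr2b, Gpr182, Oit3, Dnase1l3, Pecam1, Cdh5 and Eng, and probe sets were matched to it by annotated gene symbol. Of the 10, 8 had a probe set, among 14217 genes measured, and all 8 passed the brightness limit. Oit3 and Cdh5 were paired with no probe set in the annotation used here and are not analysed here. The genes were chosen from known roles with earlier results of these arrays in view, including lower endothelial markers in one diet group. Their levels and differences below are therefore a description and support nothing by themselves. Where a gene had several probe sets, its main value was selected on the highest mean over all 6 arrays.

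All rats were Sprague-Dawley, and the groups differed in what the mother ate: 3 arrays held liver from offspring of high fat dams and 3 from offspring of dams on standard chow, the control. Whole liver RNA was hybridised to Affymetrix arrays, and signals are on a log2 scale. The labels name no litters and do not say whether pups were pooled, so the spread behind each p-value is that of these arrays and may be partly technical. The composition of the diets and the time of feeding are not given in the sources used here.

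Sinusoidal endothelial cells form a fenestrated wall without a continuous basement membrane between blood and hepatocytes. They clear macromolecules from blood by endocytosis, through scavenger receptors, hyaluronan receptors and an Fc receptor, and pass them to lysosomes. Pecam1, Cdh5 and Eng are also made by endothelium of other vessels, whereas the stabilins, Lyve1, Fcgr2b, Gpr182, Oit3 and Dnase1l3 mark the sinusoid within the liver, mostly known from mouse.

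The sequence just upstream of the gene is shown for 4 genes whose arrays did not overlap between diets, and for Eng, whose arrays did, so that both kinds can be read side by side. Each run is the 250 bases before the gene start in RefSeq, 5′ to 3′ on the strand of the gene, in build GRCr8, where all 5 lie as follows: Stab1 at chr16:6367360-6367609 (minus strand), Stab2 at chr7:23320563-23320812 (minus), Lyve1 at chr1:174410978-174411227 (minus), Gpr182 at chr7:65474111-65474360 (minus) and Eng at chr3:36332029-36332278 (plus). Capitals mark the letters GGAAG on either strand, a core that many ETS transcription factors bind, and ETS factors are known regulators of endothelial genes.
Stab1: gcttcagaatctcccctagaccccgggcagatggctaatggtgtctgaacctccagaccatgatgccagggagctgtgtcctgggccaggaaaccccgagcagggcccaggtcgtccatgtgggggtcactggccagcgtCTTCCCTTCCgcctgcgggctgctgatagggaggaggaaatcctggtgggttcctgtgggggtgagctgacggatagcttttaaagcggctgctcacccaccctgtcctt
Stab2: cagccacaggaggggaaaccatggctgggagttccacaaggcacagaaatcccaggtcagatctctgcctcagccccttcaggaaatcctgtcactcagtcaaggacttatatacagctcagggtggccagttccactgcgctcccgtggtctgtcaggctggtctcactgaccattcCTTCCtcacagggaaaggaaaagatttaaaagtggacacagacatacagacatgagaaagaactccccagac
Lyve1: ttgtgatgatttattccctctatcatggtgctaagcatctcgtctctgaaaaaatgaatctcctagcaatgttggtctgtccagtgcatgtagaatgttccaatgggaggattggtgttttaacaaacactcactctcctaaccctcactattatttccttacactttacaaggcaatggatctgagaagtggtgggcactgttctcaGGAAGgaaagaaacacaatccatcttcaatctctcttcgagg
Gpr182: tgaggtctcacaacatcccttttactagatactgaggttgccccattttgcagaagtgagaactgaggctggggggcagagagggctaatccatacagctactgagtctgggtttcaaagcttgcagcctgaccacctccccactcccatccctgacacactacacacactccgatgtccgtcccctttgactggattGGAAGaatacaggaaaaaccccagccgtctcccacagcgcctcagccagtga
Eng: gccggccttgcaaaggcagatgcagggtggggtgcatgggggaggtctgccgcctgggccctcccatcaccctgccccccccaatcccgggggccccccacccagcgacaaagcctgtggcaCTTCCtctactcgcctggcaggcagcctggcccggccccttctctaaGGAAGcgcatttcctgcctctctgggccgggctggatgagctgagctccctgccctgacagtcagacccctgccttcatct
GGAAG stood in 5 of the 6 measured genes that the promoter table holds, in all but Dnase1l3. Of all 33469 upstream windows of the same length, 63.3% held it. GATAA, letters bound by GATA factors such as Gata4, stood in 0 of the 6 on either strand, against 23.5% of all windows. TATAAA, the TATA box letters, stood in 0 of the 6, against 12.9% of all windows. The 3 motifs were searched on both strands, and GGAAG and GATAA can share a G. A match is a description of these letters, not of a bound site, and their absence says only that they are not in this window.

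All 8 measured genes had a lower mean in pups of high fat dams than in pups of control dams, but the size differed between them. Fcgr2b was 1.98-fold and Stab2 1.96-fold lower, Gpr182 1.66-fold, Stab1 1.52-fold, and Lyve1 and Dnase1l3 1.48-fold each. Pecam1 and Eng, the markers shared with other vessels, differed by 1.06-fold and 1.03-fold. For 5 genes every high fat array lay below every control array, and 11.5% of the 10372 genes tested did so too. None of the 8 passed limma's adjusted p of 0.05 over all genes tested, and 0.0386% of all genes, 4 in number, did. At an unadjusted p under 0.05 in limma, 6 of the 8 were lower, against 7.51% of all genes. The median log2 difference, high fat minus control, was -0.59 over the 8 genes and -0.02 over all genes tested. In whole liver, fewer endothelial cells and less RNA in each cell cannot be told apart.

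**Figure D1:**
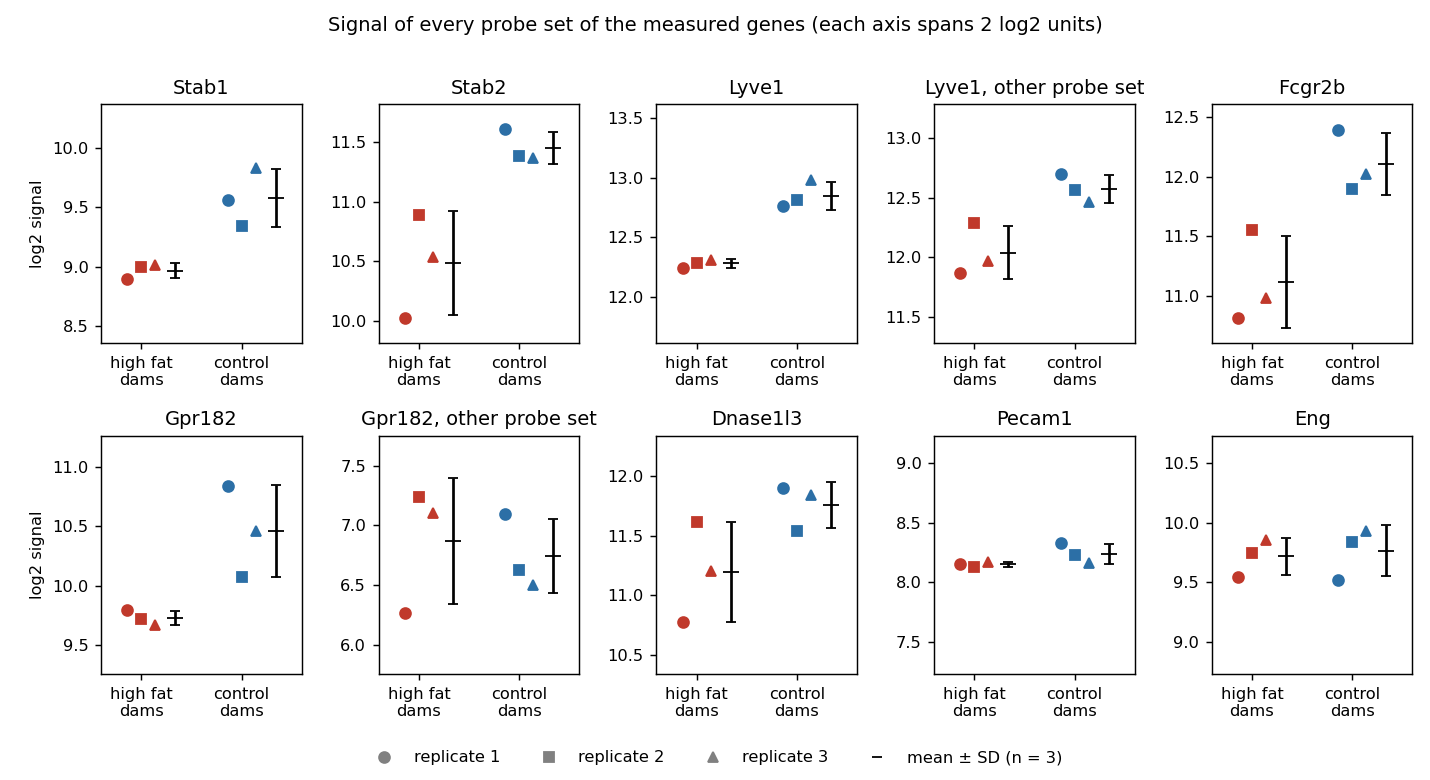
Log2 signal of all 10 probe sets of the 8 measured genes, with high fat arrays (red) left of control arrays (blue). Marker shapes give the replicate number and bars the mean ± SD (n = 3). The red points lie below the blue ones for Stab1, Stab2, both Lyve1 probe sets, Fcgr2b and the main Gpr182 probe set, and overlap them in the other 4 panels.

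The stabilins are large scavenger receptors that bind modified lipoproteins and other waste. Stab1, stabilin-1, had log2 signals of 8.90, 8.99 and 9.01 in the high fat arrays, against 9.56, 9.34 and 9.83 in the control arrays. The high fat arrays were close together and all below the lowest control, by 0.33. High fat minus control, the log2 difference was -0.61 (SE 0.16; limma adjusted p = 0.211). Stab2, stabilin-2, also called the hyaluronan receptor for endocytosis, had signals of 10.02, 10.89 and 10.54 in the high fat arrays, against 11.61, 11.38 and 11.36 in the control arrays. Here the high fat arrays spread widely, with replicate 1 lowest and replicate 2 nearest to the controls, and the groups did not overlap. The log2 difference was -0.97 (SE 0.23; limma adjusted p = 0.196). Each stabilin was measured by 1 probe set.

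Lyve1, a hyaluronan receptor of the CD44 type, was measured by a pair of bright probe sets. The main one gave 12.25, 12.28 and 12.31 in the high fat arrays, against 12.76, 12.81 and 12.98 in the control arrays. The high fat values lay within a narrow band, all under the controls, with a log2 difference of -0.57 (SE 0.12; limma adjusted p = 0.185). The other probe set gave 11.87, 12.29 and 11.97 in the high fat arrays, against 12.70, 12.56 and 12.46 in the control arrays. It too did not overlap between diets, with a difference in means of -0.53. Its high fat arrays were less even, with an SD of 0.22, against 0.03 for the main probe set.

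Fcgr2b encodes the inhibitory Fc gamma receptor, which takes up small immune complexes in sinusoidal endothelium and restrains B cells and myeloid cells. Its signals were 10.82, 11.55 and 10.99 in the high fat arrays, against 12.40, 11.90 and 12.03 in the control arrays. The groups did not overlap, and high fat replicate 1 was again lowest. Between the means the log2 difference was -0.99 (SE 0.23; limma adjusted p = 0.194). Genes of this receptor family are alike in sequence, and whether related transcripts bind this probe set was not tested.

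Gpr182 encodes a receptor that, in mouse and human, takes up chemokines without classical signalling. Its main probe set gave 9.79, 9.72 and 9.67 in the high fat arrays, against 10.84, 10.08 and 10.46 in the control arrays. The high fat arrays were even, with an SD of 0.06, while controls spread with an SD of 0.38, and the groups did not overlap. Its log2 difference was -0.73 (SE 0.20; limma adjusted p = 0.233). The other Gpr182 probe set, much dimmer at a mean of 6.81, gave 6.27, 7.23 and 7.10 in the high fat arrays, against 7.10, 6.63 and 6.50 in the control arrays. It went the other way on average, by 0.13, with overlapping groups, and the mean of both probe sets gave -0.30.

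Dnase1l3 encodes a secreted nuclease that digests DNA in chromatin fragments. Its signals were 10.77, 11.61 and 11.20 in the high fat arrays, against 11.90, 11.54 and 11.84 in the control arrays. High fat replicate 2 stood above the lowest control, so the groups overlapped. The log2 difference was -0.56 (SE 0.23; limma adjusted p = 0.349). Without high fat replicate 1 it was -0.35, and with high fat replicates 1 and 3 both left out -0.15.

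Pecam1, the junctional adhesion molecule known as CD31, had signals of 8.16, 8.13 and 8.17 in the high fat arrays, against 8.33, 8.23 and 8.16 in the control arrays. The groups touched, since control replicate 3 lay just under the highest high fat array. The log2 difference was -0.09 (SE 0.12; limma adjusted p = 0.780), with an unadjusted 95% interval from -0.37 to 0.19. Eng, endoglin, the co-receptor for bone morphogenetic protein 9, had signals of 9.55, 9.75 and 9.86 in the high fat arrays, against 9.52, 9.84 and 9.93 in the control arrays. The groups overlapped over nearly their whole range, and the lowest array of all was a control. The log2 difference was -0.05 (SE 0.16; limma adjusted p = 0.924), with an unadjusted 95% interval from -0.43 to 0.34. It was 0.04 without control replicate 3 and likewise 0.04 without high fat replicate 1. The intervals reach -0.37 and -0.43, so the arrays do not show that either gene was unaffected. Whether Pecam1 and Eng differ in their diet difference from the other 6 genes was not tested.

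**Figure D2:**
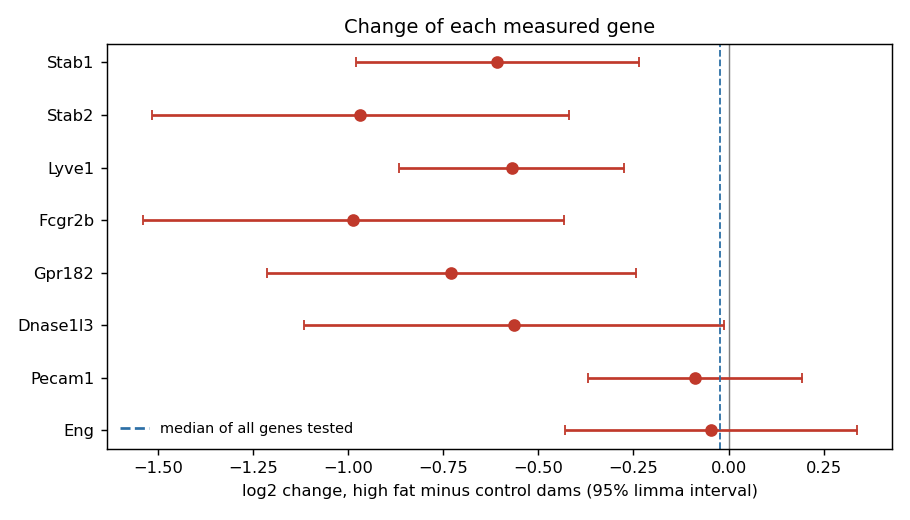
Log2 difference of each measured gene, high fat minus control, with limma's 95% interval for that gene alone, not adjusted for the number of genes. The intervals of Stab1, Stab2, Lyve1, Fcgr2b, Gpr182 and Dnase1l3 lie below 0, and those of Pecam1 and Eng span it. The dashed line marks the median of all genes tested, -0.02.

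The genes did not share 1 profile over the arrays. Set against the control mean, Stab1, Lyve1 and Gpr182 were at similar depths in all 3 high fat arrays, at -0.68, -0.58 and -0.56 for Stab1 and at -0.60, -0.57 and -0.54 for Lyve1. Stab2 was at -1.43, -0.56 and -0.92 in high fat replicates 1, 2 and 3, and Fcgr2b at -1.29, -0.55 and -1.12. Dnase1l3 was at -0.99, -0.15 and -0.56. In these 3 genes, and in the other Lyve1 probe set, replicate 1 was the lowest of the high fat arrays and replicate 2 the highest. High fat replicate 1 was the lowest array of all for 5 of the 8 genes, and control replicate 1 the highest of all for 5. The median of the 8 genes stood at -0.67, -0.56 and -0.56 in high fat replicates 1, 2 and 3.

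**Figure D3:**
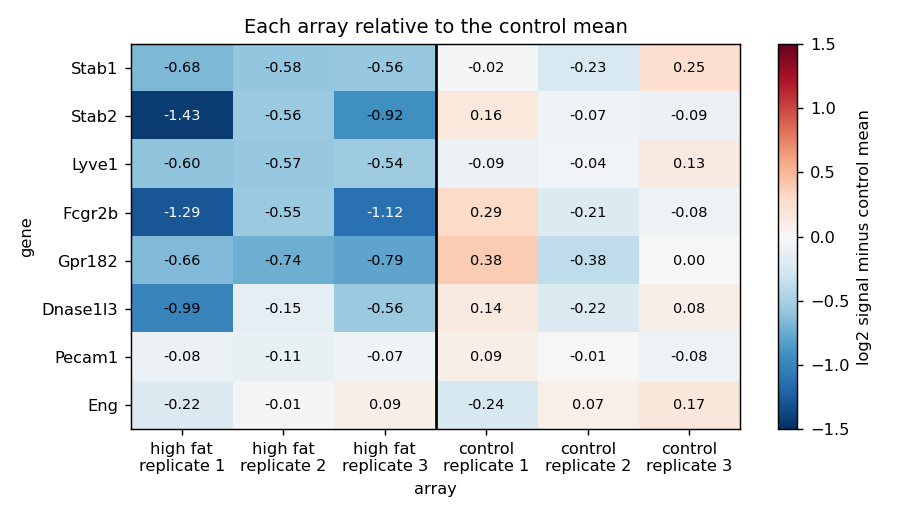
Log2 signal of each gene on each array minus its mean over the 3 control arrays. Blue is below and red above the control mean. The first 6 genes are below it on every high fat array, most deeply Stab2 at -1.43 and Fcgr2b at -1.29 in high fat replicate 1, and Pecam1 and Eng stay within -0.24 and 0.17 on every array.

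High fat replicate 1 also carried transcripts of exocrine pancreas. Its trypsinogen Prss1 was at 13.08, against 5.30 and 5.02 in the other high fat arrays and 4.10 to 5.23 in controls. Over the 7 pancreas genes measured, the summed linear signal ran from 328 to 46286 in high fat arrays and from 295 to 407 in controls. Without that array the log2 difference was -0.74 for Stab2, -0.84 for Fcgr2b, -0.57 for Stab1, -0.55 for Lyve1 and -0.76 for Gpr182. These 5 genes did not overlap between diets there, but with 1 array fewer 17.9% of all genes tested lay lower in this way, against 11.5% with all arrays. High fat replicate 3 differed from the other 5 arrays in sex-linked transcripts, with Xist at 4.45, against 12.46 to 13.31, and the Y-linked Eif2s3y at 11.14, against 3.99 at most. Without it the median of the 8 genes was -0.61. With both arrays left out, 1 high fat array remained, and the differences were -0.56 for Stab2, -0.55 for Fcgr2b, -0.58 for Stab1, -0.56 for Lyve1 and -0.74 for Gpr182, where 32% of all genes tested had no overlap in that direction. The 3′ minus 5′ difference of the actin and Gapdh control probe sets, a sign of RNA integrity, was 2.49, 1.96 and 2.24 in high fat arrays and 2.17, 2.40 and 3.09 in controls. With that difference as a covariate, an alternative chosen after seeing the data, Stab2 was at -1.14, Fcgr2b at -1.16, Gpr182 at -0.77 and Dnase1l3 at -0.67, while Stab1 was nearer to 0 at -0.53 and Lyve1 at -0.51. The planned covariate, which adds the hexokinase probe sets, gave -1.03 for Stab2, -0.95 for Fcgr2b, -0.51 for Gpr182, -0.57 for Dnase1l3, -0.55 for Stab1 and -0.58 for Lyve1.

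Several of the genes are also made outside sinusoidal endothelium, and markers of those cells and of other cell types were read beside them. Kupffer cells and macrophages, which can carry Stab1, Lyve1 and Fcgr2b, had 10 of 14 markers measured. Their median log2 difference was -0.06, and their summed signal was 18470 to 26758 in high fat arrays and 23360 to 26856 in controls. The Kupffer lectin Clec4f was at -0.03. Cd163, the haemoglobin scavenger receptor, was at -0.52 and Cd14, the endotoxin co-receptor, at -0.49, both with every high fat array below every control array, and these were picked out after their values were seen. B cells, which carry Fcgr2b, had 3 of 6 markers measured, with a summed signal of 134 to 240 in high fat arrays and 124 to 169 in controls. Blnk, a B cell signalling adaptor and the only one of the 3 above the brightness limit, was at 1.22, with every high fat array above every control array. Its control signals, 4.94, 5.48 and 6.01, lay near that limit. The other B cell markers overlapped between diets. Cd79b was at 3.96 to 5.61 in high fat arrays and 4.69 to 5.87 in controls. Ms4a1 was at 5.35 to 6.10 and 5.63 to 6.04. Platelets and megakaryocytes, which carry Pecam1, had 4 of 5 measured. Their sums were 656 to 846 in high fat arrays and 1022 to 1158 in controls, without overlap. The 2 tested, Itga2b and Pf4, were at -0.36 and -0.55, each with overlapping groups. Hepatocyte markers, 9 of 10 measured, had a median of -0.04. Their sums were 234336 to 242719 in high fat arrays and 243689 to 251571 in controls, also without overlap. Erythroid cells had 3 of 5 markers tested, all with a negative difference, none past the adjusted threshold, and a median of -0.82. Their summed signal was 595 to 956 in high fat arrays and 795 to 1674 in controls. Slc4a1, the red cell anion exchanger, was at -0.96 (SE 0.29), with every high fat array below every control array.

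Lymphatic endothelium, which makes Lyve1, had all 4 markers tested, 3 positive and 1 negative, with a median of 0.07. Its summed signal was 7047 to 8340 in high fat arrays and 8601 to 9857 in controls, without overlap. Most of that sum came from Prox1, at 11.97 to 12.76, and Reln, at 11.47 to 11.73. Pdpn and Ccl21 were at 6.94 or below. Reln, at 0.05 with overlapping groups, is also counted with the stellate markers below. Prox1, a transcription factor of lymphatic endothelium that hepatocytes also make, was at -0.46 (SE 0.16), with every high fat array below every control array. The lymphatic chemokine Ccl21 was at 1.10 (SE 0.71), with overlapping groups. Control replicate 3 was at 3.65 and all other arrays at 6.10 to 6.94. Stellate cells and fibroblasts had 10 of 11 tested, 7 positive and 3 negative, with a median of 0.07, and sums of 17540 to 20879 in high fat arrays and 18263 to 19282 in controls. Cholangiocytes had 2 of 6 tested, both positive, with sums of 1328 to 1506 in high fat arrays and 1138 to 1365 in controls. Slc4a1, Prox1 and Ccl21 were picked out after their values were seen. No measured marker of these 8 cell types was at 0 on any array, and their part in the differences was not tested.

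Other genes of sinusoidal endothelium were split in direction. Of 14 listed, 11 were tested, 7 with a negative and 4 with a positive difference, none past the adjusted threshold, and the median was -0.30. Mrc1, the mannose receptor, another clearance receptor of these cells, was at -0.34 (SE 0.13), F8, coagulation factor VIII, at -0.43 (SE 0.14), and Gata4, a transcription factor of sinusoidal identity in mouse, at -0.30 (SE 0.13). In all 3, named by their place in the list, each high fat array lay below each control array. Of the 11 tested, 4 lay lower in this way, against 11.5% of all genes tested. Tfpi, at 0.36, had every high fat array above every control array. The other positive genes, Bmp6, Rspo3 and Wnt2, were at 0.16, 0.11 and 0.06, with overlapping groups. Flt4 was below the brightness limit and Clec4g and Wnt9b had no probe set here.

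Genes made by endothelium of all vessels, the class of Pecam1 and Eng, were mostly negative. Of 27 listed, 25 were tested, 21 with a negative and 4 with a positive difference, none past the adjusted threshold, and the median was -0.29. Kdr, the main receptor for vascular endothelial growth factor, had signals of 10.75, 11.54 and 11.40 in the high fat arrays, against 11.88 to 12.17 in the control arrays. Its difference was -0.79 (SE 0.22), with groups apart and high fat replicate 1 lowest. Tie1, an orphan receptor kinase, was at -0.99 (SE 0.33) and Tek, the angiopoietin receptor, at -0.37 (SE 0.15), both with groups apart. Of the 25 tested, 6 had every high fat array below every control array, against 11.5% of all genes tested. Heg1, at 0.21, had every high fat array above every control array. The other positive genes, Sox7, Fli1 and Rasip1, were at 0.41, 0.36 and 0.36, with overlapping groups. Across all genes tested, 5506 of 10372 had a negative difference.

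Markers of continuous capillaries and large vessels were sparse, with 4 of 8 tested, 3 negative and 1 positive, and a median of -0.34. Plvap, the diaphragm protein of fenestrae and caveolae, is not confined to continuous capillaries. It had signals of 7.96, 8.18 and 8.11 in the high fat arrays, against 7.32, 7.77 and 7.57 in the control arrays. Its high fat arrays were all above its controls, opposite to the sinusoidal receptors, with a difference of 0.53 (SE 0.16; limma adjusted p = 0.255). Vwf, von Willebrand factor, was at -0.40 (SE 0.31) and Emcn, endomucin, at -0.36 (SE 0.36), both overlapping.

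The molecular partners of the 8 genes varied in direction, and none of those tested passed the adjusted threshold. In endoglin, ALK1 and bone morphogenetic protein receptor signalling, 5 of 12 tested genes were positive and 7 negative, with a median of -0.03, close to Eng itself. Acvrl1, which encodes ALK1, was at 0.23 (SE 0.26) and Bmpr2 at 0.07 (SE 0.25). Of the junction partners of VE-cadherin and PECAM1, 6 of 9 were negative, with Ctnnb1, beta-catenin, at -0.27 (SE 0.12) and Ctnnd1, p120 catenin, at -0.15 (SE 0.15). Beside Fcgr2b, 4 of 6 tested genes of Fc gamma receptors and their partners were negative. The activating receptors Fcgr1a and Fcgr3a were at -0.18 (SE 0.22) and 0.66 (SE 0.25). Beside Dnase1l3, Dnase1 was at 0.73 (SE 0.28), with signals near the brightness limit, and Dnase1l1 at -0.20 (SE 0.12), and 2 of 4 deoxyribonucleases were negative.

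Chemokine scavengers related in function to Gpr182 had wide errors, with Ackr3 at -0.26 (SE 0.60) and Ackr4 at -0.70 (SE 0.37). Their list also held chemokines and the receptor Cxcr4, and 4 of its 6 tested genes were negative. The chemokine Cxcl13 was at 1.68 (SE 0.35; limma adjusted p = 0.185), with every high fat array above every control array. It was picked out after its value was seen. Genes that make or break down hyaluronan, the ligand of Stab2 and Lyve1, had 3 of 7 tested. Hyal2, a hyaluronidase, was at -0.04 (SE 0.17) and Cd44, another hyaluronan receptor, at 0.00 (SE 0.20). Clearance receptors of other liver cells split evenly, 4 positive and 4 negative. Scarb1, the receptor for high density lipoprotein, was at -0.26 (SE 0.25) and Lrp1, which takes up lipoprotein remnants, at -0.55 (SE 0.26).

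**Figure D4:**
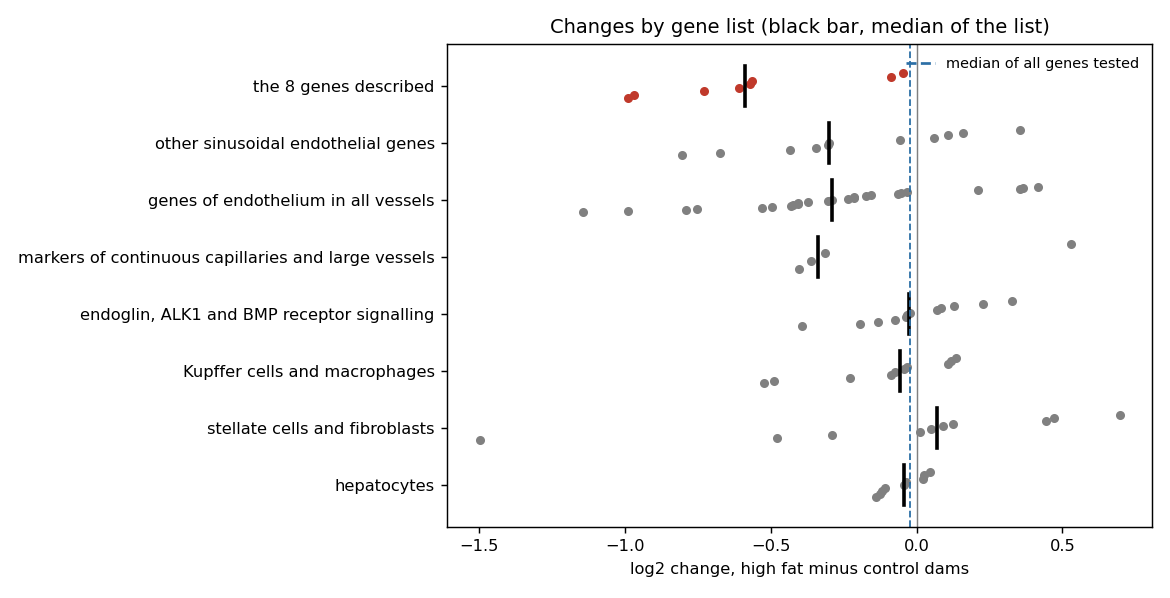
Log2 difference, high fat minus control, of each tested gene (points) by list, with the list median as a black bar and the median of all genes tested as a dashed line. The 8 genes have a median of -0.59, other sinusoidal genes -0.30, genes of all vessels -0.29, Kupffer cells -0.06 and hepatocytes -0.04. Markers of continuous capillaries and large vessels have a median of -0.34.

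Outside all these lists, the genes whose levels followed the median of the 8 genes most closely were found by the root mean square difference over the 6 arrays, after centring on the control mean. Pld1, a phospholipase D, differed from it by 0.036 log2 units, Bcl9l, a co-activator of beta-catenin, by 0.060, Mecom, a zinc finger transcription factor, by 0.080, Phf21a by 0.081 and Krcc1 by 0.086. By the same measure Lyve1 differed by 0.10, Stab1 by 0.11, Gpr182 by 0.19 and Dnase1l3 by 0.21. Stab2 and Fcgr2b differed by 0.35 each, Pecam1 by 0.37 and Eng by 0.43. Pld1 had signals of 7.59, 7.73 and 7.67 in the high fat arrays, against 8.42, 8.17 and 8.28 in the control arrays. With 6 arrays and 10372 genes, close profiles of this kind are a description of likeness alone.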

How the data were processed

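RNA of 6 liver samples was amplified from the 3′ end and biotin-labelled for the arrays, as the labels' protocols state. The authors deposited log2 signals per probe set, a scale read from the values: only base 2 gives every array a 2% trimmed mean of 500.2 once the logarithm is undone. The lowest values had been set to 0. How probes were summarized is not stated in the labels. Because array quartiles lay up to 0.22 apart, arrays were quantile-normalized. Control probe sets (57 of 31099) were left out of the tests. Annotation paired 20826 probe sets with 1 gene, 436 with several and 9780 with none named here. Each gene took its brightest probe set, and genes below 5.83, the limit of the lowest 40%, were left out.

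The diet comparison used limma (version 3.58.1, R 4.3.3; 2-sided, Benjamini-Hochberg over 10372 genes), and the procedure was tested on simulated data. The members and gene lists were chosen with earlier results of these data known. Named genes were the 10 members, the first 3 tested symbols of the 3 endothelial lists and the first 2 of the others in written order, and the 5 closest profiles. Cell type markers and sex-linked transcripts were read beside them. Further genes of the lists, named for a positive difference, were picked out after their values were seen. Promoters came from RefSeq (GRCr8), which held 7 of the 10 members. No probe positions are given. The number of arrays limits the precision.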

Additional observations from a re-analysis of the deposited data

How the results depend on the processing

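Under 15 alternatives, each of the 8 measured genes except Eng kept a negative log2 difference, and none passed limma's adjusted threshold in any of them (lowest adjusted p 0.0814, for Lyve1). The alternatives covered the normalization, the brightness limit, probe sets, the variance model, array weights, a replicate block, covariates for RNA integrity and arrays left out. Eng was at 0.019 with the actin and Gapdh covariate, which was chosen after seeing the data because the hexokinase control probe sets lay near the floor, and ranged from -0.17 to 0.037 with 1 array left out, positive without control replicate 3 and without high fat replicate 1. The median of the 8 genes ranged from -0.70 to -0.51 with 1 array left out. The number of the 8 whose groups did not overlap was 4 with the mean of all probe sets, where Gpr182 dropped out, and 5 or 6 otherwise, against 10.9% of all genes with the mean of all probe sets. It was 6 for the values as deposited, where Pecam1 was added (11.6% of all genes). The other counts of 6 came with arrays left out. There the share of all genes was 15.8% to 17.8% with 1 array out and 32% with high fat replicates 1 and 3 out. With no brightness limit the count was 5 and the share 9.93%.

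Over all genes, 4 passed the adjusted threshold, 1 did with no brightness limit, and 0 with the replicate block, with the covariate from all 3 control genes, and with the actin and Gapdh covariate (limma; 1103, 967 and 1138 genes at an unadjusted p under 0.05). With 1 array left out the count ranged from 0 to 3, and it was 0 without control replicate 1 or control replicate 3 (1314 and 1143 at an unadjusted p under 0.05). The replicate block changed no call among the 8 genes, with Stab2 at an adjusted p of 0.372. Same-numbered arrays did not deviate together (correlations across probe sets of -0.11, -0.07 and -0.11). The labels give them only a number in common. With 3 arrays per group, these correlations cannot show whether such arrays were handled together. With high fat replicates 1 and 3 both left out, the lone high fat array is assumed to vary like the others. The causes of these shifts were not tested.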
